A study of Homo sapiens with 135 samples.

Results

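The regions described here are the places where an MBD3 peak was called in untreated H9 cells on day 0, 4 or 9 of neural induction, and the question was which of them were found again from day to day. H9 is an established human embryonic stem cell line. Neural induction here meant moving dissociated cells into a commercial induction medium supplemented with SMADi, which turns pluripotent cells into neural progenitors. The groups were labelled WT and received neither DMSO nor BPK25. Each day had 3 immunoprecipitated samples, 9 in all, and the deposited list of a day was called on its 3 replicates pooled. The labels do not state that the replicates were separate cultures. There was thus 1 list a day and no replicate error, and no test between days was possible. Intervals are 95% intervals (Wilson for shares, order statistics for medians) and cover counting error only.

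A region is 1 distinct interval of a list, and regions of different days that overlapped by at least 1 bp were merged. From day 0 came 12093 regions, from day 4 51109 and from day 9 29341. They merged to 79837 regions, of 350373 when all 36 lists of the series were merged. For comparison, the MBD3 lists of DMSO-treated cells merged to 85093 regions and the CTCF lists of untreated cells to 25476. All coordinates are of build hg19. Genes and sequences at the regions were not analysed here.

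MBD3 is a subunit of the nucleosome remodelling and deacetylase (NuRD) complex, which combines a chromatin remodelling ATPase of the CHD family with histone deacetylases. Unlike its relative MBD2, it binds methylated DNA weakly and is needed to hold the complex together. In pluripotent cells NuRD is known for tuning the expression of genes used in lineage choice. CTCF, also profiled here, is a zinc finger protein that binds a long DNA motif, positions the nucleosomes around it and, with cohesin, marks the bases of chromatin loops.

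Most MBD3 regions were called on 1 day only. Of the 79837 merged regions, 68258 (85.5%) had a peak on 1 day, 10580 (13.3%) on 2 days and 999 (1.25%) on all 3 days. The single-day regions comprised 39915 of day 4, 25481 of day 9 and 2862 of day 0. Among regions of 2 days, 7730 joined days 0 and 4, 2413 joined days 4 and 9, and 437 joined days 0 and 9. Day 0 and day 4 were therefore linked far more often than either was linked with day 9. When the lists of days 4 and 9 were cut to the 12093 regions of the day 0 list by −log10 q, the share of regions of 1 day was 71.8% and the number of regions of 3 days was 500.

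**Figure D1:**
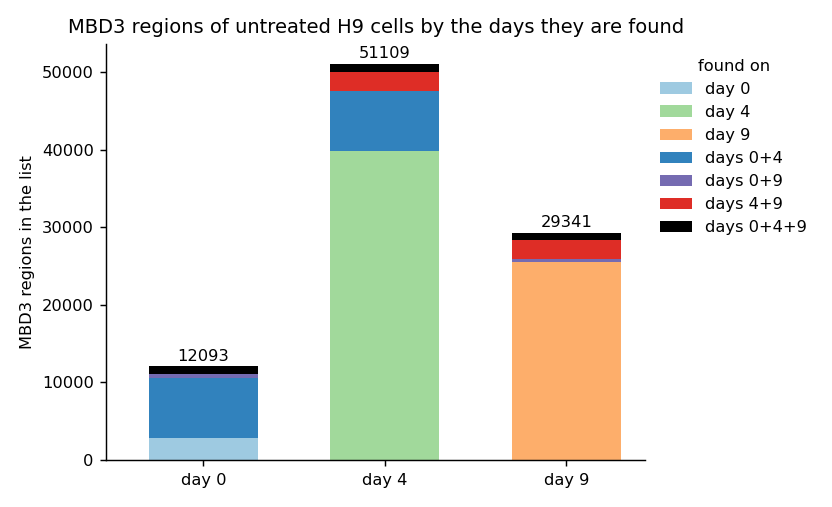
Number of MBD3 regions in the list of each day (vertical axis), with each bar split by the days on which the region was found. The day 4 bar of 51109 regions is mostly regions found on day 4 only, whereas most of the 12093 regions of day 0 are also found on day 4.

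The share of regions found again differed with their strength within their own list, ranked by the −log10 of the q-value. In the whole day 0 list 72.6% of regions were found again on day 4, and the share was 50.4% (48.6 to 52.2) in the weakest 25% and 82.8% (81.4 to 84.1) in the strongest 25%. Seen from day 4, 17.1% of regions had been present on day 0, with 2.18% (1.94 to 2.44) in the weakest and 51.2% (50.4 to 52.1) in the strongest 25%. The strongest regions of day 4 had thus been called in pluripotent cells far more often than the weakest. Day 9 regions had been found on day 4 in 11.6% of the whole list, in 5.54% (5.06 to 6.05) of the weakest and in 29.3% (28.3 to 30.4) of the strongest 25%. Day 9 regions had been found on day 0 in 4.76% of the whole list, in 1.60% (1.35 to 1.9) of the weakest and in 14.8% (14.0 to 15.6) of the strongest 25%. Forward from day 4, 6.77% of regions were found again on day 9, against 12.7% (12.1 to 13.3) in the strongest 25%. Forward from day 0, 11.8% were found again on day 9, and here the weakest 25% reached 14.6% (13.3 to 15.9) and the strongest 19.1% (17.8 to 20.6), with 6.49% and 7.19% in the 2 parts between them. The regions that linked day 0 with day 9 therefore came from both ends of the day 0 list, unlike those that linked day 0 with day 4.

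Where regions of different days overlapped, their summits, the positions of highest signal, lay close together. The summits of overlapping day 0 and day 4 regions were 12 bp apart in the median (11 to 12, 8786 pairs), and 92.0% of pairs lay within 50 bp. For days 0 and 9 the median was 17 bp (15 to 20, 1436 pairs) with 67.1% within 50 bp. For days 4 and 9 it was 26 bp (23 to 28, 3466 pairs) with 61.2% within 50 bp. The persisting position was thus most exactly kept between days 0 and 4.

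Regions of several days ranked high in the lists of days 4 and 9 and less so in that of day 0. In the day 4 list the median percentile was 41.5 for regions of day 4 only, 63.3 (62.0 to 65.3) for days 4 and 9, 87.9 (87.6 to 88.2) for days 0 and 4, and 89.2 (87.5 to 90.5) for all 3 days. In the day 9 list it was 47.4 for day 9 only, 82.7 (81.6 to 83.7) for days 4 and 9, 91.8 (90.7 to 93.0) for days 0 and 9, and 92.5 (91.4 to 93.3) for all 3 days. In the day 0 list it was 27.7 (26.3 to 28.1) for day 0 only, 47.6 (38.4 to 62.4) for days 0 and 9, 56.7 (55.7 to 57.6) for days 0 and 4, and 62.3 (56.8 to 66.4) for all 3 days. By this ranking of −log10 q, single-day regions were the weakest class of each list. The ranges overlapped widely on day 0, where the middle 50% of the 443 regions shared with day 9 only ran from a −log10 q of 3.47 to 37.8.

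**Figure D2:**
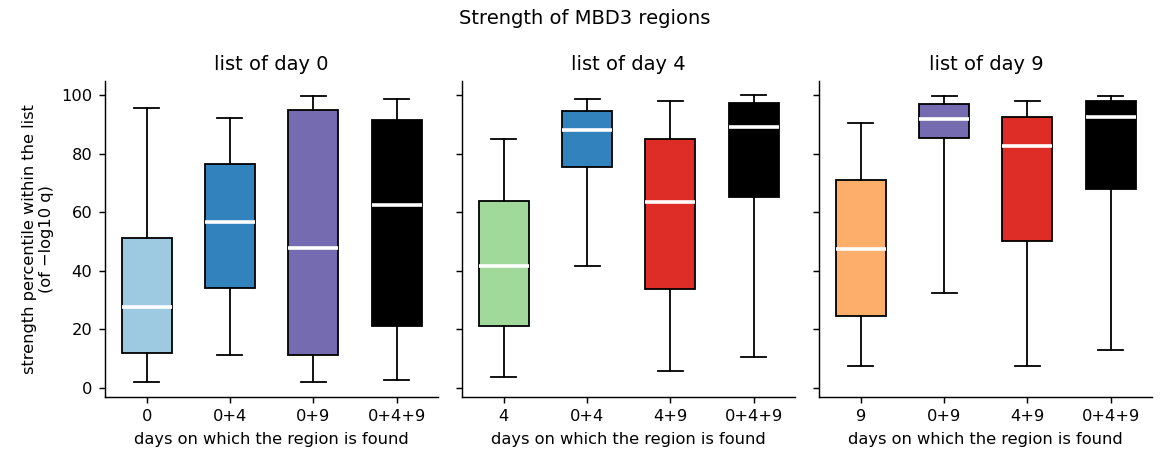
Percentile of the −log10 q within the list of each day (vertical axis) for regions grouped by the days on which they were found (horizontal axis); boxes span the middle 50%, white lines mark medians and whiskers run from the 5th to the 95th percentile of the group. In the day 4 list the groups 0+4 and 0+4+9 have medians of 87.9 and 89.2, against 41.5 for day 4 only.

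The fold enrichment, which the authors' files give over the local background at the summit, separated these classes differently. Pileup (fragments at the summit) and local background (fragments expected there from the control) were solved here from each peak's fold enrichment and p-value. Regions of days 0 and 4 had a median fold enrichment of 5.62 on day 0 and 7.58 on day 4, at a local background of 3.98 and 2.20 fragments. Regions of all 3 days had a median fold enrichment of 2.21 on day 0, 2.66 on day 4 and 5.47 on day 9, at a local background of 51.6, 31.1 and 6.27 fragments. Regions of day 0 only, day 4 only and day 9 only had medians of 4.43, 4.01 and 4.31. They were in no list the class of lowest median fold enrichment. The whole lists had median backgrounds of 3.98, 1.86 and 1.32 fragments on days 0, 4 and 9. Regions of days 0 and 4 thus had a higher fold enrichment on these days than regions of all 3 days. Their background was at the list median on day 0 and slightly above it on day 4. Persistent regions of all 3 days lay where many fragments were expected from the control as well as found in the immunoprecipitate. The 437 regions of days 0 and 9 were more extreme still, with a background of 90.5 fragments and a fold enrichment of 1.96 on day 0, and 27.1 fragments and 3.57-fold on day 9. Requiring at least 4-fold enrichment in every list left 125 regions of 3 days. It lowered the share of day 0 regions found again on day 9 to 1.43% and left 75.8% found again on day 4. The part of the control's signal in the calls of all 3 days was not tested.

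Of the individual regions of all 3 days with a peak in fewer than 18 of the 36 lists, the 4 that ranked highest in the list in which they ranked lowest are given here, with the values of each day's own list. At chr5:118309484-118309809 the −log10 q was 499 on day 0, 211 on day 4 and 1109.6 on day 9, with fold enrichments of 2.26, 1.71 and 5.15 over local backgrounds of 1224, 2373 and 164 fragments. At chr1:43148083-43148252 it was 229, 235 and 643, with fold enrichments of 2.13, 2.24 and 6.93 over backgrounds of 1113, 974 and 93.2 fragments. At chr2:177065677-177066115 it was 255, 111 and 461, with 2.22-fold, 1.70-fold and 3.84-fold enrichment. On days 0 and 4 the fold enrichment of these 3 regions lay below the median of its list. All 3 had a CTCF peak on day 4, with a −log10 q of 646, 514 and 349. The other region chosen by this rule, chr19:27732601-27732795, had a −log10 q of 502, 151 and 388 at 3.50-fold, 1.91-fold and 2.78-fold enrichment. It had a CTCF peak on day 0 only. Its local backgrounds were 376, 1096 and 670 fragments, and the nearest other merged region lay 220 bp away.

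The strongest regions of 2 days that included day 0 were unlike each other. The region chr1:114888469-114889610, 1142 bp wide after merging, had a −log10 q of 109 on day 0 and 218 on day 4, with 17.5-fold and 44.3-fold enrichment over backgrounds of only 6.19 and 2.70 fragments. Its CTCF peak on day 4 had a −log10 q of 10.6. The region chr10:42530580-42530751 had a −log10 q of 147 and 93.3, with 3.38-fold and 2.27-fold enrichment over 198 and 374 fragments. The regions chr10:42386949-42387431 and chr10:42392612-42392798, found on days 0 and 9, had a −log10 q of 976 and 906 and of 539 and 498. Their CTCF peaks were found on day 0 only, with a −log10 q of 1159.6 and 620.5. As background, these 3 regions of chromosome 10 lie beside its centromere.

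CTCF peaks were spread unevenly over these classes of MBD3 region. A CTCF peak of untreated cells on at least 1 day was found at 19.0% of all merged MBD3 regions, at 15.4% (15.1 to 15.6) of those of 1 day, at 36.1% (35.2 to 37.0) of those of 2 days and at 84.7% (82.3 to 86.8) of those of 3 days. Regions of 2 days were not alike. A CTCF peak of day 4, when the CTCF list was longest with 18222 regions, was found at 14.9% of all merged regions and at 14.3% (13.6 to 15.1) of regions of days 0 and 4. It was found at 69.1% (64.6 to 73.3) of regions of days 0 and 9, at 70.6% (68.7 to 72.4) of days 4 and 9 and at 80.4% (77.8 to 82.7) of all 3 days. Among single days it was found at 2.90% of day 0, 14.5% of day 4 and 8.16% of day 9. The order of days 4 and 9 turned at a −log10 q of at least 5, with 8.37% of day 4 only and 32.8% of day 9 only. The classes that included day 9 and another day were thus CTCF-rich, whereas regions shared by days 0 and 4 carried day 4 CTCF about as often as all regions. At a −log10 q of at least 5 in every list regions of days 0 and 4 had it in 3.92%, and with 50% reciprocal overlap in 8.26%. Moving all regions by 10 kb lowered the share to between 0.42% and 1.24% in each of the 7 classes.

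**Figure D3:**
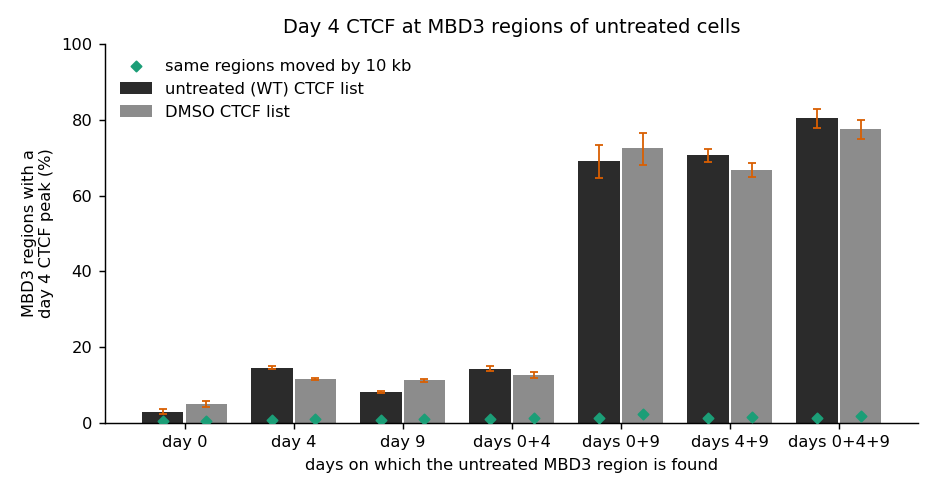
Share of untreated MBD3 regions with a day 4 CTCF peak (vertical axis, %) by the days on which the MBD3 region was found, against the CTCF list of untreated cells and that of DMSO-treated cells; error bars are Wilson 95% intervals and diamonds give the same regions moved by 10 kb. The classes 0+9, 4+9 and 0+4+9 lie between 66.8% and 80.4% in both lists and the other classes at 14.5% or below.

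The same 3 classes had the highest shares with the CTCF list of DMSO-treated cells, a separate set of immunoprecipitated samples. Its day 4 CTCF peaks lay at 14.1% of all untreated MBD3 regions, at 12.6% (11.9 to 13.4) of those of days 0 and 4, at 66.8% (64.9 to 68.7) of days 4 and 9, at 72.5% (68.2 to 76.5) of days 0 and 9 and at 77.6% (74.9 to 80.1) of all 3 days. When the MBD3 lists of DMSO-treated cells were merged over days in the same way and set against their own day 4 CTCF list, the share was 14.9% for all regions, 21.5% (20.1 to 23.1) for days 0 and 4, 60.3% (58.7 to 61.8) for days 4 and 9, 65.3% (60.8 to 69.5) for days 0 and 9 and 91.6% (90.5 to 92.6) for all 3 days. The 3 classes that joined day 9 with an earlier day were the CTCF-rich ones in DMSO-treated cells as well, while regions of days 0 and 4 lay above the share of all regions there.

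Other days of CTCF, with shorter lists, gave lower shares in each class but MBD3 regions of day 0 only. There the day 4 CTCF list reached 2.90% and the day 0 CTCF list more. The day 9 CTCF list of 8521 regions reached 5.91% of all merged MBD3 regions, 9.29% (8.66 to 9.96) of days 0 and 4, 18.6% (17.1 to 20.2) of days 4 and 9 and 23.6% (21.1 to 26.4) of all 3 days, but 1.14% (0.49 to 2.65) of days 0 and 9. MBD3 regions of day 9 only overlapped the CTCF list of their own day in 1.19% (1.06 to 1.33) and that of day 4 in 8.16%. The day 0 CTCF list held 976 regions and reached 0.76% of all merged regions. It reached 11.8% (10.7 to 13.0) of MBD3 regions of day 0 only, 22.2% (18.6 to 26.3) of days 0 and 9, 9.11% (7.48 to 11.1) of all 3 days and 0.36% (0.25 to 0.52) of days 0 and 4. After a move by 10 kb its share was still 5.95% for days 0 and 9, against 0.12% for all regions. Only 34 of the 999 MBD3 regions of 3 days had a CTCF peak on all 3 days as well.

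Of those 34, only 12 were eligible to be named, by the limit of fewer than 18 of the 36 lists and the chromosomes used. The strongest of these was chr10:98510014-98510624. Its MBD3 peaks had a −log10 q of 166, 213 and 902 on days 0, 4 and 9, at 1.99-fold, 2.37-fold and 11.6-fold enrichment. Its CTCF peaks had a −log10 q of 83.8, 562 and 37.4. These values come from 6 lists whose depth is unknown, so their size is not compared between days. The next, chr18:72057224-72057566, had MBD3 values of 114, 82.4 and 361 and CTCF values of 35.9, 213 and 24.1.

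Within the strongest part of a list the classes still differed. In the whole day 4 MBD3 list 18.5% of regions had a CTCF peak of that day. Within its strongest 25% the share was 17.2% (16.2 to 18.2) of 5852 regions of days 0 and 4, 25.4% (24.2 to 26.6) of 5304 regions of day 4 only, 88.8% (86.6 to 90.7) of 922 regions of days 4 and 9, and 77.0% (73.7 to 80.0) of 700 regions of all 3 days. In the whole day 9 MBD3 list 16.4% of regions had a day 4 CTCF peak. Within its strongest 25% the share was 32.8% (31.5 to 34.1) of 4802 regions of day 9 only, 88.1% (86.3 to 89.6) of 1423 regions of days 4 and 9, and 94.6% (92.7 to 96.0) of 723 regions of all 3 days. Regions among the strongest of 1 list therefore differed in CTCF by the other days on which they were found.

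The local background moved with this result. Above the median background of the day 4 list, a day 4 CTCF peak was found at 15.3% (14.3 to 16.4) of regions of days 0 and 4, 79.2% (77.4 to 80.9) of days 4 and 9, and 85.5% (83.1 to 87.6) of all 3 days. At or below that median it was found at 12.9% (11.8 to 14.1), 26.5% (22.4 to 31.0) of 400 regions, and 33.7% (25.1 to 43.5) of 98 regions. The order of the classes was thus kept at low background, with a smaller gap. With a fold enrichment of at least 4 required of MBD3 on day 4, the shares were 14.6% (13.8 to 15.5), 64.6% (61.3 to 67.7) and 51.9% (46.8 to 57.0). With at least 4-fold enrichment required in every MBD3 and CTCF list, CTCF on at least 1 day was found at 39.2% of the remaining 125 regions of 3 days, against 11.2% of regions of 1 day. Under that setting a day 4 CTCF peak was found at 9.14% of regions of days 0 and 4, 68.1% of days 4 and 9, 31.2% of all 3 days and 22.2% of the 18 left of days 0 and 9. MBD3 and CTCF lists of 1 day may have been called against the same control, which the sources used here do not give. How far a shared control adds to these overlaps was not tested.

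Distances between summits split the classes in the same way. On day 4 the MBD3 summit lay 62 bp (56 to 69, 1129 pairs) from the overlapping CTCF summit in regions of days 0 and 4 and 63 bp (60 to 66, 5923 pairs) in regions of day 4 only. It lay 11 bp (10 to 12, 1735 pairs) from it in regions of days 4 and 9 and 9 bp (8 to 11, 835 pairs) in regions of all 3 days. Within 50 bp lay 44.4%, 44.5%, 74.1% and 74.5% of these pairs. The MBD3 summits of day 9 lay 9 to 12 bp from day 4 CTCF summits in each class that holds day 9, with 10 bp (10 to 11, 2106 pairs) in regions of day 9 only. Against the CTCF summits of day 9 itself, those of day 9 only were 67.5 bp away (59 to 85, 306 pairs). Where MBD3 of day 9 overlapped CTCF of day 4, the summits thus lay close together in each class.

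**Figure D4:**
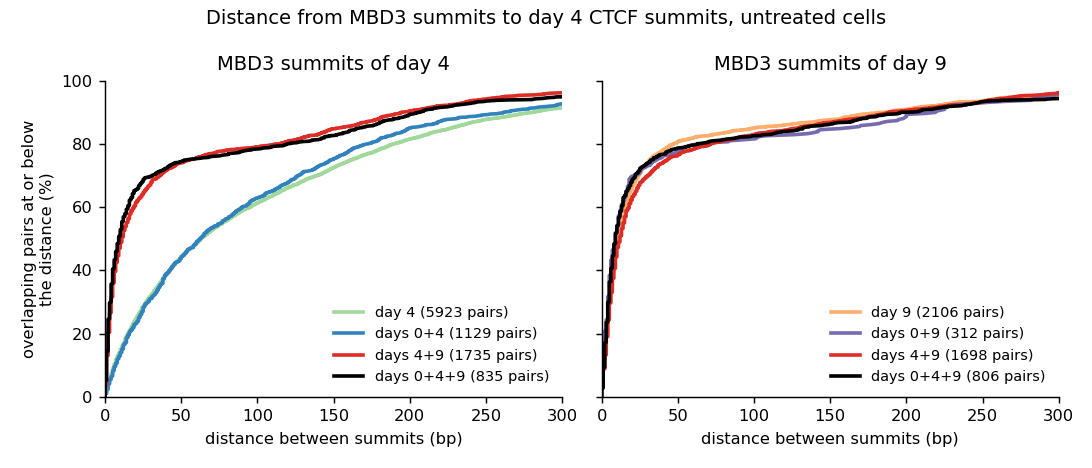
Cumulative share of overlapping pairs (vertical axis, %) by the distance between the MBD3 summit and the day 4 CTCF summit (horizontal axis, bp), for MBD3 summits of day 4 and of day 9, with 1 line per class of MBD3 region. On day 4 the classes 4 and 0+4 rise slowly with medians of 63 and 62 bp, while 4+9 and 0+4+9 rise steeply with medians of 11 and 9 bp, and on day 9 the 4 classes run together.

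The single-day regions of highest −log10 q in each list had CTCF peaks on unlike days. On day 9 only, chr2:98262502-98262668 had an MBD3 peak with a −log10 q of 450 at 22.96-fold enrichment over 12.8 fragments, and a CTCF peak on day 4 with a −log10 q of 246. The region chr5:165809402-165809581, also of day 9 only, had 397 at 7.69-fold, and its day 4 CTCF peak had 198. Neither had a CTCF peak on day 9. In DMSO-treated cells the chromosome 2 region had an MBD3 peak on day 4 only, with a −log10 q of 201. The chromosome 5 region had one there on all 3 days, with 187, 185 and 510, so these 2 regions were not of day 9 only under DMSO. On day 4 only, chr13:110076482-110076682 had 137 at 7.76-fold, and its CTCF peaks had 173 on day 4 and 61.5 on day 9. On day 0 only, chr10:42527960-42528116 had 521 at 3.94-fold over 287 fragments, and its day 0 CTCF peak had 495. This region lies in the same stretch beside the centromere as the chromosome 10 regions of 2 days named above. The next of day 0 only, chr3:196625625-196625773, had 493 at 4.32-fold over 236 fragments, and its day 0 CTCF peak had 448. The regions named here of day 4 only and day 0 only had a DMSO MBD3 peak on their own day only. Regions of days 4 and 9 joined these patterns. At chr14:102551037-102551340 MBD3 had 102 on day 4 at 2.27-fold over 409 fragments and 455 on day 9 at 15.8-fold over 23.1 fragments, and CTCF had 355 on day 4 and 17.2 on day 9. At chr9:116171005-116171268 MBD3 had 97.8 and 322 and CTCF had 340 on day 4 only.

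Seen from CTCF, the day 4 sites differed in strength by the days of MBD3. Of the 18222 CTCF regions of day 4, 12.1% had an MBD3 peak on day 0, 52.1% on day 4 and 26.9% on day 9. No MBD3 peak on any day was found at 34.0% of them, MBD3 on day 4 only at 32.9% and on days 0 and 4 at 5.71%. The median CTCF percentile was 39.5 in each of these 3 groups, with an interval of 39.5 to 42.6 for days 0 and 4. Each of these medians fell among peaks tied at a −log10 q of 3.42, so they could not resolve a small difference. MBD3 on day 9 only was found at 11.7% of CTCF regions, on days 4 and 9 at 9.31% and on all 3 days at 4.26%. The median CTCF percentile of these was 79.6 (78.6 to 80.6), 83.8 (82.7 to 84.9) and 91.5 (90.2 to 92.8). By −log10 q the CTCF peaks of day 4 that carried MBD3 on day 9 were thus among the strongest. Those that carried it on days 0 and 4 without day 9 had the same tied median by this measure as those without MBD3. Fold enrichment gave another order. Its median was 3.96 without MBD3, 4.25 with MBD3 on day 4 only and 4.28 on days 0 and 4. It was 3.14 with MBD3 on day 9 only, 2.11 on days 0 and 9, 4.45 on days 4 and 9 and 3.43 on all 3 days. The median background was 20.7 fragments with MBD3 on day 9 only, 11.03 on days 4 and 9 and 49.8 on all 3 days. With MBD3 on days 0 and 4 it was 1.67.

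On day 0, where CTCF had only 976 regions, 4.64% of the MBD3 list had a CTCF peak of that day. The share was 60.5% (55.3 to 65.6) of the 342 regions of day 0 only in the strongest 25% of the list, and 0.14% (0.05 to 0.42) of the 2088 regions of days 0 and 4 there. The summits of day 0 MBD3 and CTCF lay 5 bp apart (4 to 7, 339 pairs) in regions of day 0 only. The strongest regions of day 0 only were thus mostly called for CTCF too, and those of days 0 and 4 in the same 25% almost never. Regions of all 3 days in that 25% had a CTCF peak of day 0 in 17.8% (14.4 to 21.8) of 415. At or below the list's median background the share in regions of day 0 only was 1.20% (0.80 to 1.79), and above it 33.5% (30.5 to 36.6). The part of the background in this was not tested.

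Spacing also differed between the classes. The median distance to the nearest other merged MBD3 region was 4517 bp over all regions. It was 4534 bp (3750 to 5268) for regions of 3 days and 4440.5 bp (4333 to 4531) for regions of 1 day, so that the number of days by itself did not separate these merged medians. Within 1 list the order differed by day. Regions of 1 day and of 3 days lay 53667.5 and 33670 bp from a neighbour in the day 0 list. In the day 4 list the distances were 4362 and 9260 bp, and in the day 9 list 15808 and 10844 bp. Within single days it was 9240 bp (8528 to 9982) for day 0, 6754.5 bp (6609 to 6936) for day 9 and 2744 bp (2647 to 2841) for day 4. Among regions of 2 days it was 5623.5 bp (5383 to 5870) for days 0 and 4, 2918 bp (2583 to 3363) for days 4 and 9 and 2233 bp (1383 to 3159) for days 0 and 9. A neighbour within 1 kb was found for 34.9% of regions of day 4 only, 40.4% of days 0 and 9, 19.4% of days 0 and 4 and 13.8% of day 0 only. Regions of day 4 only were by far the most numerous class, and the distances were not adjusted for number. With lists of equal length by −log10 q, regions of 3 days lay closer to a neighbour than those of 1 day, at 11295 and 17657 bp. With 50% reciprocal overlap they lay farther from one, at 4764.5 and 3423 bp.

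**Figure D5:**
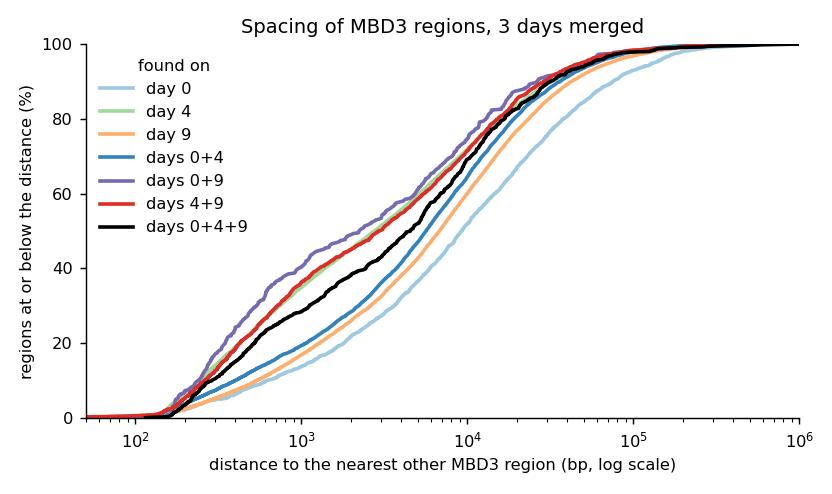
Cumulative share of merged MBD3 regions (vertical axis, %) by the distance to the nearest other merged region (horizontal axis, bp, log scale), 1 line per class of days. Lines for days 0+9, 4 and 4+9 lie highest at 1 kb, between 34.9% and 40.4%, and the line for day 0 lies lowest at 13.8%.

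The 437 regions of days 0 and 9 were crowded in a few places. Of the 428 on chromosomes 1 to 22, X and Y, 33 lay between positions 46000001 and 47000000 of chromosome 16, and the 10 windows of 1 Mb that held most of them held 25.2%, against 1.81% for all regions. As background, that stretch of chromosome 16 also lies beside the centromere. Chromosome 16 held 11.9% (9.18 to 15.3) of them and 3.96% of all regions, and chromosome 19 held 10.98% (8.36 to 14.3) and 4.36%. Regions of all 3 days had 5.74% in their 10 fullest windows, those of day 0 only 6.63% and those of day 4 only 2.11%. These shares were not adjusted for the number of regions in a class, and a small class can reach a higher share by its number alone. The fullest window of the 976 regions of all 3 days on these chromosomes held 6 of them. Merged width grew with the number of days, from a median of 198 bp for 1 day to 280 bp for 2 and 361 bp for 3, a measure that merging itself raises.

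Regions of several days were also those found again in DMSO-treated cells. A DMSO MBD3 peak on at least 1 day lay at 40.0% of all untreated regions, at 32.4% (32.0 to 32.7) of those of 1 day, 83.5% (82.8 to 84.2) of those of 2 days and 98.7% (97.8 to 99.2) of those of 3 days. Of the 999 regions of 3 days, 687 (68.8%, 65.8 to 71.6) were found on all 3 days under DMSO too. Single-day regions were mostly without a DMSO peak, 63.3% of those of day 4 and 74.5% of those of day 9. With untreated lists of equal length by −log10 q this no longer held, as 50.9% of regions of 1 day then had a DMSO peak. Regions of days 0 and 9, which lacked a peak on day 4 in untreated cells, were called on all 3 days under DMSO in 60.6% (56.0 to 65.1) and on days 0 and 9 in 22.2% (18.6 to 26.3). Most regions of days 0 and 9 therefore had a day 4 peak in DMSO-treated cells. Regions of days 0 and 4 kept their days less often than regions of 3 days, with 25.9% on days 0 and 4 under DMSO and 47.6% on day 4 only.

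The TET enzymes, which convert 5-methylcytosine to its oxidised forms, were profiled in DMSO-treated and BPK25-treated cells but not in untreated ones, and the labels' protocols name an antibody for TET1 only. Their DMSO peaks of day 4 divided the untreated MBD3 regions in another order than CTCF did. TET1 peaks lay at 21.6% of all merged MBD3 regions, at 39.5% (38.4 to 40.6) of those of days 0 and 4 and at 32.0% (31.5 to 32.4) of those of day 4 only. They lay at 21.5% (20.0 to 23.2) of days 4 and 9, 20.6% (18.2 to 23.2) of all 3 days, 1.95% (1.79 to 2.13) of day 9 only and 1.83% (0.93 to 3.57) of days 0 and 9. TET2 gave 20.5% over all regions, 38.7% for days 0 and 4 and 1.53% for day 9 only, and TET3 gave 21.1%, 40.2% and 1.20%. In the day 4 lists regions of days 0 and 4 were thus the class with the most TET peaks. The CTCF-rich regions of days 0 and 9 were there among those with the fewest. With the day 0 lists of each TET protein, regions of days 0 and 9 had the highest share instead. TET1 peaks of day 0 lay at 21.1% (17.5 to 25.1) of them, 1.24% of days 0 and 4 and 1.30% of all regions. After a move by 10 kb, regions of days 0 and 9 still overlapped day 0 peaks of TET1, TET2 and TET3 in 8.92%, 9.15% and 9.61%. All regions then overlapped those of TET1 in 0.37%.

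MBD3 peaks of cells given BPK25 on at least 1 day lay at 13.6% of all untreated MBD3 regions. They lay at 15.1% (14.3 to 15.9) of regions of days 0 and 4, 50.2% (48.2 to 52.2) of days 4 and 9, 69.8% (66.9 to 72.5) of all 3 days and 86.0% (82.5 to 89.0) of days 0 and 9. Among single days the share ran from 8.93% for day 9 to 16.1% for day 0.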

How the data were processed

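The 3 lists of MBD3 peaks in untreated cells were used with the CTCF lists of untreated cells and the lists of treated cells, 36 in all from 135 samples in 45 groups. Per the labels each was called on 3 pooled replicates against a control. Per the submitters' processing notes, which give no roles, the tools were MACS2 (2.1.2), Bowtie2 (2.3.4), bedtools (2.25.0), SAMtools (1.9) and FastQC (0.11.7), and the build was hg19. Which input was the control is not given in the sources used here. The authors deposited for each peak a linear fold enrichment over local background, a ratio. They also deposited the −log10 of its p-value and q-value, and the summit's offset. These are the authors' values, and peaks were ranked or filtered by them only inside 1 list.

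Summit rows of 1 interval were collapsed to the row of highest −log10 q. Percentiles rank −log10 q within a list. A Poisson law then gave the pileup and background that match both the fold enrichment and the p-value of a peak, and in the 3 MBD3 lists of untreated cells 99.7% to 100.0% of rows had a whole-number pileup to within 0.01 on the −log10 p scale. The median pileup was 27, 13 and 10 fragments on days 0, 4 and 9. The lists state no depth.

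The regions and comparisons were chosen with earlier results of these data known. Named regions lie on chromosomes 1 to 22 or X (chromosome 8 not used) and in fewer than 18 lists. They are the 4 regions of 3 days, and the 2 of each other pattern, whose lowest percentile over their days is highest (for 1 day, of highest −log10 q), and the 2 best of 3 days with CTCF on 3 days. The text names most of them. Parts of a list by strength, background or fold enrichment, DMSO CTCF lists, moves by 10 kb, windows of 1 Mb and the CTCF share by class under each alternative were added after the data were seen. Alternative settings filtered peaks (−log10 q ≥ 5, or fold ≥ 4), asked for 50% reciprocal overlap, made the lists equally long by either measure, dropped regions called in 18 or more lists, or kept the main chromosomes. Software was pandas 2.3.3, numpy 2.4.6, matplotlib 3.10.9 and scipy 1.17.1 under Python 3.11.15. Overlap was checked with bedtools 2.31.1, which also counted 9453 MBD3 regions of day 4 with a CTCF peak of that day, and merging and pileups were tested on simulated data.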

Additional observations from a re-analysis of the deposited data

How the results depend on the processing

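No paired analysis was possible because each list pools its 3 replicates, and for the same reason no replicate could be left out. The 12 results were recomputed under 7 alternatives. Of the 84 values, 32 stayed within the main value's 95% interval, or for the count within 1.5 times, and 52 moved. Dropping regions called in 18 or more lists, and keeping chromosomes 1 to 22, X and Y only, moved none. The causes of the moves were not tested. The main values, in the order used below, were 85.5% of merged regions with a peak on 1 day, 999 regions of 3 days, 72.6%, 11.8% and 6.77% found again (day 0 on day 4, day 0 on day 9, day 4 on day 9), a day 4 percentile of 89.2, distances of 4534 and 4440.5 bp (3 days, 1 day), CTCF at 84.7% and 15.4%, and DMSO MBD3 at 98.7% and 32.4% (3 days, 1 day). Values not given stayed.

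At a −log10 q of at least 5 they became 71.7% of 1 day, 454 regions, 8.44% (day 0 on day 9), 7.29% (day 4 on day 9), distances of 11485 and 14893.5 bp, CTCF at 92.3% and 16.3%, and DMSO MBD3 at 99.3% and 32.0%. At a fold enrichment of at least 4 they became 84.4%, 125 regions, 75.8%, 1.43% and 2.85% found again, a percentile of 91.0, distances of 9321 and 9253 bp, CTCF at 39.2% and 11.2%, and DMSO MBD3 at 93.6% and 33.5%. With reciprocal overlap of at least 50% they became 89.5%, then 55.1%, 8.91% and 4.54% found again, a distance of 3423 bp for 1 day, CTCF at 11.1% of 1 day, and DMSO MBD3 at 97.7% and 25.8%. With lists of equal length by −log10 q they became 71.8%, 500 regions, 53.4%, 9.85% and 10.6% found again, a percentile of 82.1, distances of 11295 and 17657 bp, CTCF at 92.2% and 24.3%, and DMSO MBD3 at 99.8% and 50.9%. With lists of equal length by fold enrichment they became 76.7%, 108 regions, 49.7%, 6.60% and 2.39% found again, distances of 12446.5 and 17828 bp, CTCF at 63.9% and 24.2%, and DMSO MBD3 at 47.8% of 1 day.

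In every alternative CTCF was found more often at regions of 3 days than of 1 day. The CTCF share of day 4 at regions of days 0 and 4 ran from 3.92% to 18.2% over the settings, and that at regions of all 3 days from 31.2% (125 regions, fold enrichment of at least 4) to 90.7%. The lists give no depth, and a region absent from a list was not shown to lack MBD3.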

Other observations

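Merged regions with a peak in at least 18 of the 36 lists numbered 403 (0.50%). They made up 57 of the 999 regions of 3 days (5.71%) and 9 of the 25481 regions of day 9 only (0.04%).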
